A study of Mus musculus with 4 samples.

Results

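CatSper is the calcium channel of the sperm tail. Its genes were followed here in whole testis of mice whose Ythdf2 was mutated in germ cells alone, as the series describes it. Ythdf2 encodes a reader of N6-methyladenosine (m6A) in RNA. The 8 genes Catsper1, Catsper2, Catsper3, Catsper4, Catsperb, Catsperd, Catsperg1 and Catsperg2 were taken by exact match of their symbols in the deposited table. Each symbol occurred once, so 8 of 25265 genes were members, and all 8 passed the filter on low counts. Ribosomal RNA-depleted directional libraries came from testes of C57BL/6 males at postnatal day 56, as 2 control libraries and 2 that carry the label Ythdf2-vKO. The labels give the genotype of the first group only as control. They name neither the Cre driver nor the deleted segment of Ythdf2, and they do not say whether each library came from its own animal. P-values therefore measure the spread between these libraries, which may be technical.

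CatSper is activated by an alkaline pH. The calcium it admits drives the hyperactivated beat needed to reach and penetrate the egg. CATSPER1 to CATSPER4 together form the pore. Accessory proteins, among them those encoded by Catsperb, Catsperd and the Catsperg genes, form a canopy over it on the outer face. The genes are transcribed in germ cells during and after meiosis, and the channel is assembled in the spermatid tail. A whole-testis library also holds somatic cells, and in such bulk samples fewer cells of a type and less RNA per cell cannot be told apart.

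Total counts per library were between 24862518 and 29561182. Ythdf2 itself had 1193 and 1604 counts in the controls, and 1774 and 1807 in the vKO-labelled libraries, a log2 fold change of 0.35 (adjusted p 0.238). Its counts were thus not lower under the vKO label, and without the deleted segment the label could not be checked from them. Directions are therefore given for the vKO-labelled libraries against the controls. A gene-level count does not say which exons its reads cover. edgeR's quasi-likelihood test called none of the 8 members, the threshold being a Benjamini-Hochberg adjusted p under 0.05. Over all 21132 genes tested, 83 were called, or 0.393%. DESeq2 also called none of the 8.

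The Catsperg genes needed a check before their values were read, because mouse carries the gamma subunit gene in 2 copies. Catsperg1 (ENSMUSG00000049676, chr7:29181321-29214035) and Catsperg2 (ENSMUSG00000049123, chr7:29697219-29727032) lie on the minus strand with 483183 bases between them (GRCm38). The coding sequences of their longest protein-coding GENCODE M21 transcripts, 3453 and 3435 nt long, aligned over 3432 bases with 122 differences, an identity of 96.4%. The longest identical stretch was 341 bases. The window of 60 bases with the most differences holds 13 of them and is shown to illustrate where reads can tell the copies apart. It spans coding positions 1652 to 1711 in each, counted from the first base of the start codon, with differing bases in capitals:
Catsperg1: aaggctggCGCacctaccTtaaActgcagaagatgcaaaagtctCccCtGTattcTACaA
Catsperg2: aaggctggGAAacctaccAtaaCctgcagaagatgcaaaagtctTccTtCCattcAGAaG
The first identical window, coding positions 28 to 87 of Catsperg1, is shown for contrast:
Catsperg1 and Catsperg2: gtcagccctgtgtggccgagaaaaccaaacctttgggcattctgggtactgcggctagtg
How the counting treated reads that fit both copies is not given in the sources used here, so the split between the pair is uncertain.

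Levels were compared between genes per length, as CPM (read counts scaled to a common library size) divided by the length of the longest M21 transcript in kilobases. All 8 members were well expressed, between the 79.7th and the 97.3rd percentile of the genes tested. Catsper2, a pore subunit, was highest in each of the 4 libraries, with 148 ± 11.4 CPM per kilobase in the controls, and 129 ± 6.99 in the vKO-labelled libraries (SD, n = 2 each, here and below). Catsper4 was second in each library (80.9 ± 2.83 and 88.0 ± 4.79). Catsperg1, Catsperd, Catsper1 and Catsper3 followed, with means over the 4 libraries from 67.3 down to 58.0 CPM per kilobase, and they changed places between libraries. Within this middle group, Catsperd lay above Catsper1 in only 2 of 4 libraries. Catsperg2 was seventh in every library (48.8 ± 6.21 and 46.1 ± 1.79). Catsperb, an accessory subunit, was last in every library (21.9 ± 0.664 and 16.8 ± 1.66), and the mean of Catsper2 was 7.15 times that of Catsperb. With the union of exons as length, the mean of Catsper2 dropped from 139 to 86.0 CPM per kilobase and that of Catsperg1 from 67.3 to 42.1, below Catsper1 (59.4). Catsper2, Catsper4 and Catsperb kept the first, second and last places.

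**Figure D1:**
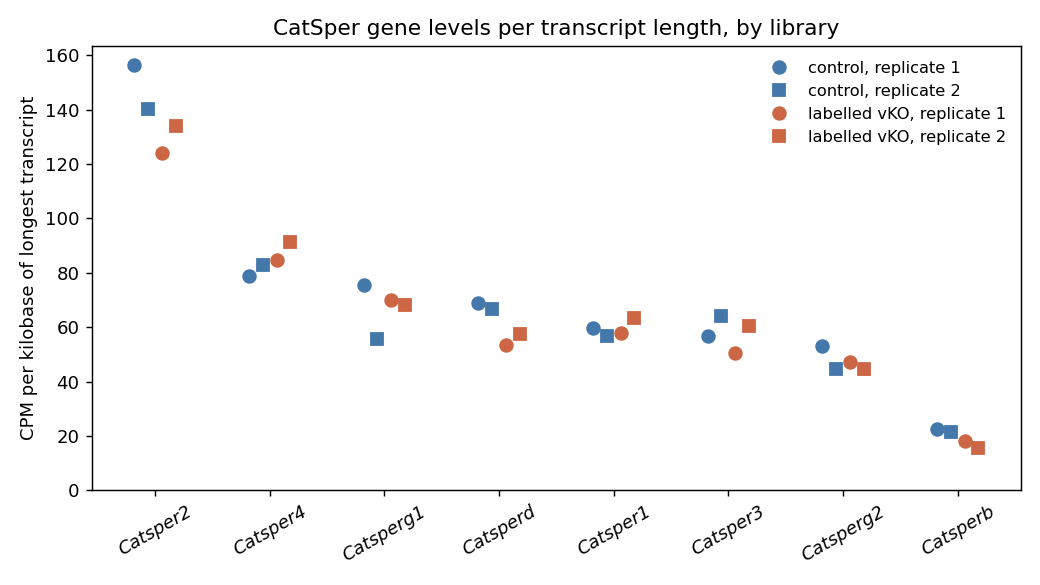
Level of each CatSper member, in CPM per kilobase of the longest transcript (linear axis from 0), with 1 point per library and members ordered by their mean over the 4 libraries. Catsper2 lies highest and Catsperb lowest in every library, while the points of the 4 genes from Catsperg1 to Catsper3 interleave.

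Among the pore genes, Catsper1 and Catsper4 were slightly higher and Catsper2 and Catsper3 slightly lower in the vKO-labelled libraries, none of them past the threshold. Catsper1 (ENSMUSG00000038498, chr19:5335741-5344280) had 3060 and 3715 counts in the controls, and 3395 and 3735 in the vKO-labelled libraries, or 131 and 124 against 127 and 138 CPM. The groups overlapped, and the log2 fold change was 0.06 (95% interval -0.20 to 0.32, adjusted p 0.885). Catsper1 is required for sperm motility in viscous fluid and for male fertility. Catsper2 (ENSMUSG00000033486, chr2:121392631-121413792) had 359 and 322 CPM in the controls, and 285 and 307 in the vKO-labelled libraries, and here both labelled libraries lay below both controls. Its log2 fold change was -0.20 (-0.46 to 0.06, adjusted p 0.499). Its exons overlap those of Pdia3 on the opposite strand, a protein disulfide isomerase gene with 8686 and 11199 counts in the controls, and 9677 and 9494 in the vKO-labelled libraries. Use of strand in counting is not given in the sources used here, so reads of the pair may not be separated.

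Catsper3 (ENSMUSG00000021499, chr13:55784568-55808998) had 75.4 and 85.0 CPM in the controls, and 67.4 and 80.5 in the vKO-labelled libraries. The groups overlapped, with a log2 fold change of -0.12 (-0.41 to 0.18, adjusted p 0.763). Catsper4 (ENSMUSG00000048003, chr4:134211970-134227383) had 136 and 143 CPM in the controls, and 146 and 158 in the vKO-labelled libraries. It was the only member with both labelled libraries above both controls, with a log2 fold change of 0.12 (-0.14 to 0.38, adjusted p 0.718). With 1 library left out, log2 fold changes ran from -0.28 to -0.13 for Catsper2 and from 0.062 to 0.18 for Catsper4. The signs of Catsper1 and Catsper3 each rested on 1 library. Without replicate 2 of the vKO-labelled libraries the log2 fold change of Catsper1 was -0.0083, and without replicate 1 that of Catsper3 was 0.0057.

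The accessory genes Catsperb and Catsperd had the lowest fold changes of the 8. Catsperb (ENSMUSG00000047014, chr12:101404653-101626009) had 1945 and 2390 counts in the controls, and 1793 and 1571 in the vKO-labelled libraries, or 83.2 and 79.7 against 67.0 and 58.2 CPM. The groups did not overlap, and the mean was 81.5 ± 2.47 CPM in the controls, and 62.6 ± 6.19 in the vKO-labelled libraries. The log2 fold change was -0.38 (SE 0.13, interval -0.66 to -0.10), with an unadjusted p of 0.012 and an adjusted p of 0.221. Gm18795, an unprocessed pseudogene 89.1% identical to the longest Catsperb transcript over 2906 nt, had 243 and 304 counts in the controls, and 241 and 246 in the vKO-labelled libraries. Pseudogene reads were thus few beside those of Catsperb, with a ratio of at most 0.157.

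Catsperd (ENSMUSG00000040828, chr17:56628143-56664456) encodes the delta subunit, needed for a stable channel complex. It had 176 and 170 CPM in the controls, and 136 and 147 in the vKO-labelled libraries, again without overlap. The log2 fold change was -0.29 (SE 0.12, interval -0.55 to -0.03, unadjusted p 0.0301, adjusted p 0.296). Catsperb and Catsperd were thus the 2 members with an unadjusted p under 0.05, both lower, where 6.47% of all genes tested were lower at that p. Both had an adjusted p above the threshold in the authors' deposited table too (0.24 for Catsperb and 0.367 for Catsperd). In that table Slco6c1 and Slc9c1, which are not members and are read below, had an adjusted p under 0.05 (0.0101 and 0.0181). For these genes the DESeq2 run here gave the same adjusted p values, so the deposited values and the rerun are not separate results.

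For the gamma subunit genes the control libraries differed more from each other than the groups did. Catsperg1 had 332 CPM in replicate 1 and 245 CPM in replicate 2 of the controls, with 308 and 300 CPM in the vKO-labelled libraries between them. Its log2 fold change was 0.08 (-0.24 to 0.39, adjusted p 0.867). Catsperg2 had 237 and 198 CPM in the controls, and 211 and 200 in the vKO-labelled libraries, a log2 fold change of -0.08 (-0.36 to 0.19, adjusted p 0.828). Its labelled libraries, too, lay between the controls. Without control replicate 2 the log2 fold change of Catsperg1 was -0.13, and without control replicate 1 that of Catsperg2 was 0.044. The ratio of Catsperg1 to Catsperg2 was 1.40 and 1.23 in the controls, and 1.46 and 1.51 in the vKO-labelled libraries, so Catsperg1 had more counts in every library. Counts of both genes were also added, which removes the question of how counted reads were split between them. Reads that fit both copies, if left uncounted, would be missing from the sum too. Their sum was 569 and 443 CPM in the controls, and 519 and 500 in the vKO-labelled libraries, with a log2 fold change of 0.01 (-0.28 to 0.30, adjusted p 0.986). It was -0.16 without control replicate 2, -0.02 without replicate 1 of the vKO-labelled libraries and 0.20 without control replicate 1.

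**Figure D2:**
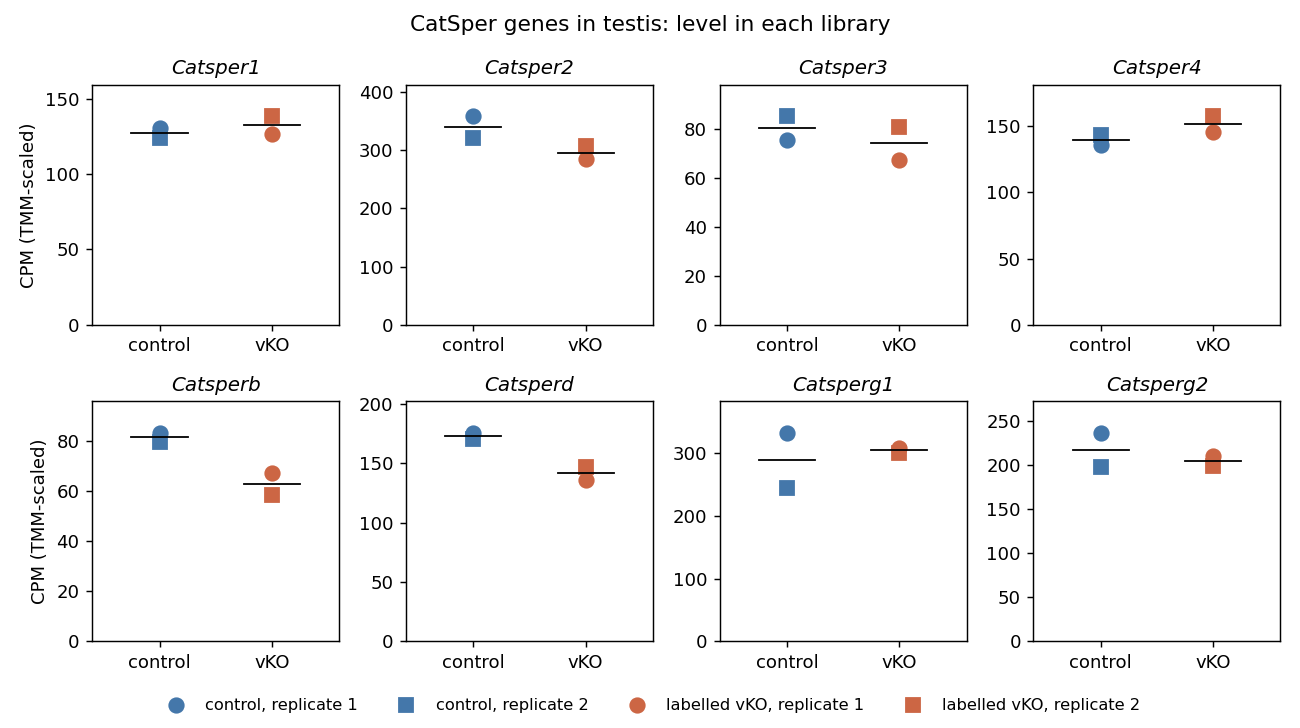
CPM of each CatSper member (TMM-scaled, axis from 0) in the 2 control libraries and the 2 libraries labelled vKO, with a line at each group mean. Catsper2, Catsperb and Catsperd have both labelled libraries below both controls, Catsper4 has them above, and the other 4 genes overlap.

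As a list, 5 of the 8 members had a log2 fold change below 0, against 49.7% of all genes tested, and their median was -0.10 against 0.00265 for all genes. In 3 members both labelled libraries lay below both controls and in 1 above, where 22.6% and 22.7% of all genes tested did so. The median ran from -0.17 to -0.03 over the alternatives. It was -0.0416 without control replicate 1 and -0.167 without control replicate 2, -0.0595 and -0.151 without replicates 1 and 2 of the vKO-labelled libraries, and -0.0347 with library totals alone, which shifted the median of all genes to 0.0674. The 4 pore genes had a median of -0.03 and the 4 accessory genes of -0.19, a difference that was not tested. Summed over the 8 members, levels were 1529 and 1366 CPM in the controls, and 1347 and 1389 in the vKO-labelled libraries. Control replicate 1 was highest, and the other 3 libraries lay close together.

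Of the other components of the complex, none of the 8 was called, and 7 had a log2 fold change below 0, with a median of -0.21. The share below 0 was 49.7% over all genes tested. Slco6c1, of the organic anion transporter family, had 157 and 165 CPM in the controls, and 110 and 108 in the vKO-labelled libraries. Its log2 fold change of -0.56 (SE 0.12, interval -0.81 to -0.30) was the lowest of the 16 CatSper genes, with an unadjusted p of 0.000435 and an adjusted p of 0.0692. It was called, at an adjusted p of 0.0101, by the DESeq2 test, which called 1.32% of genes with an adjusted p. It was also called in edgeR without control replicate 1 (0.000205) and without control replicate 2 (0.00246), where 6.82% and 4.93% of genes were called. It was not called without replicate 1 (0.525) or replicate 2 (0.32) of the vKO-labelled libraries. In these fits a lone library is assumed to vary like the others. C2cd6, whose product helps place the channel in the tail, had 283 and 287 CPM in the controls, and 221 and 226 in the vKO-labelled libraries. Its log2 fold change was -0.35 (SE 0.12, unadjusted p 0.00959, adjusted p 0.202), and it ran from -0.37 to -0.34 with 1 library left out.

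The remaining 6 components had unadjusted p values of 0.135 or more. Catsperz and Efcab9 encode a cytoplasmic pair, of which EFCAB9 binds calcium. Catsperz had 311 and 342 CPM in the controls, and 255 and 310 in the vKO-labelled libraries (log2 fold change -0.21, adjusted p 0.521). Efcab9 had 90.1 and 106 CPM in the controls, and 88.5 and 89.3 in the vKO-labelled libraries (-0.14, adjusted p 0.694). Both genes had lower values in both labelled libraries than in either control, but their fold changes moved with single libraries. That of Efcab9 was -0.017 without control replicate 2 and -0.25 without control replicate 1. That of Catsperz was -0.074 without replicate 1 and -0.36 without replicate 2 of the vKO-labelled libraries. Exons of Catsperz overlap those of Kcnk4 on the same strand, and their longest transcripts have 528 nt in common. Reads of that stretch cannot be assigned by sequence, and Kcnk4 was not among the genes read here.

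Tmem249 was the only other component with a positive log2 fold change (0.14, adjusted p 0.679), and Tmem262 had -0.20 (adjusted p 0.608). With 1 library left out they ran from 0.077 to 0.21 and from -0.31 to -0.11. Exons of Tmem262 (525 and 614 counts in the controls, 465 and 536 in the vKO-labelled libraries) overlap those of Zfpl1 on the opposite strand. Zfpl1 had 314 and 339 counts in the controls, and 378 and 351 in the vKO-labelled libraries, and reads of the pair may not be separated. Catspere1 and Catspere2, copies for the epsilon subunit, had -0.22 and -0.08 (adjusted p 0.592 and 0.871), the latter 0.0075 with an offset for GC content. Their transcripts are 89.7% identical, and M21 annotates Catspere1 as an unprocessed pseudogene. Its counts, 1366 and 1617 in the controls, and 1507 and 1079 in the vKO-labelled libraries, were between 0.746 and 0.967 of those of Catspere2.

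**Figure D3:**
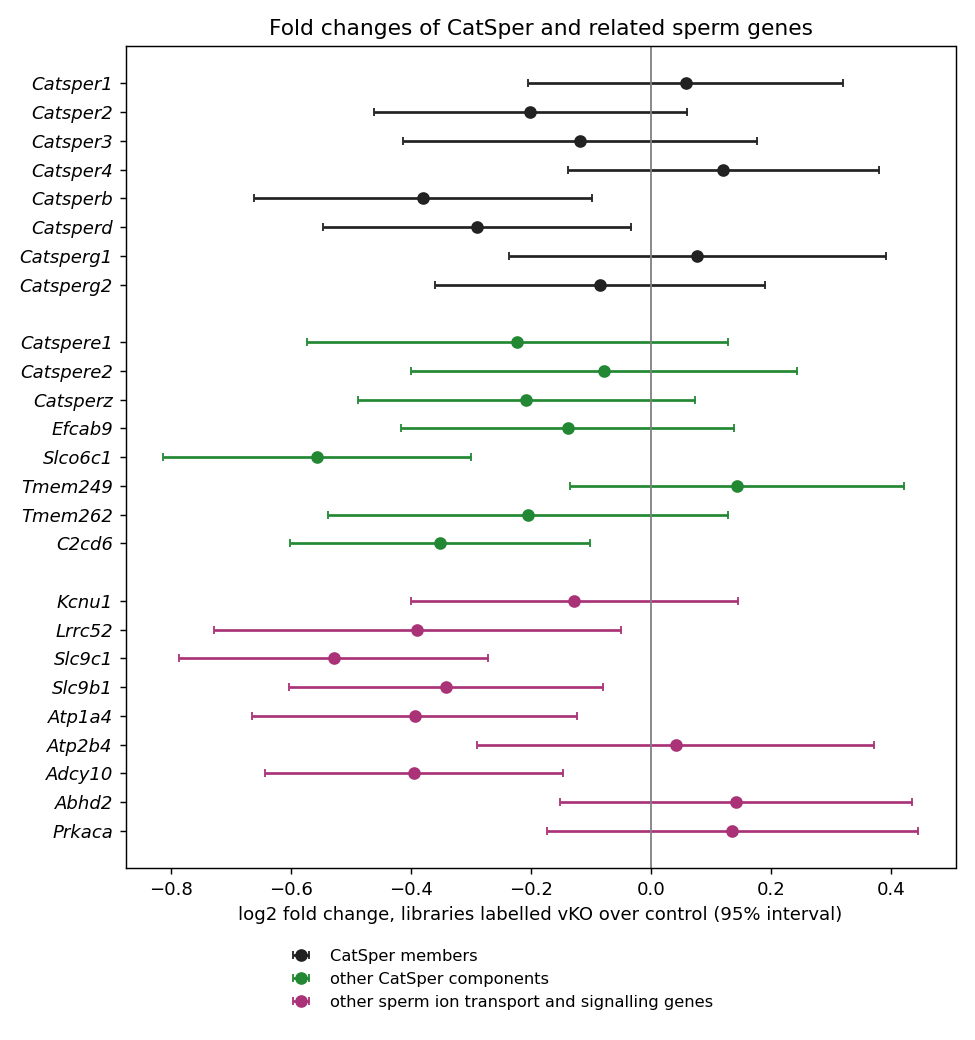
Log2 fold changes of the vKO-labelled libraries over control with 95% intervals from edgeR, for the 8 members, the 8 other CatSper components and 9 of 10 tested genes of sperm ion transport and signalling (Hvcn1, with 12 to 34 counts, is left out for its wide interval). Intervals of Catsperb, Catsperd, Slco6c1, C2cd6, Lrrc52, Slc9c1, Slc9b1, Atp1a4 and Adcy10 lie below 0, before adjustment over all genes.

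Genes that act beside CatSper in sperm were read as a further list. It held 11 genes, of which Slc9b2 was not among the genes read here. Of the 10 tested none was called, 6 had a log2 fold change below 0, and 5 had an unadjusted p under 0.05, all lower. Over all genes tested, 49.7% had a log2 fold change below 0 and 6.47% were lower at that p. Slc9c1, the sperm sodium/proton exchanger, had 197 and 203 CPM in the controls, and 133 and 144 in the vKO-labelled libraries (log2 fold change -0.53, SE 0.12, adjusted p 0.0856). It was called by DESeq2 (adjusted p 0.0181), and with 1 library left out its log2 fold change ran from -0.59 to -0.47. Adcy10, the soluble adenylyl cyclase that makes cyclic AMP in response to bicarbonate, had 437 and 419 CPM in the controls, and 329 and 323 in the vKO-labelled libraries (-0.39, adjusted p 0.162). Neither gene had overlapping groups.

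Atp1a4, the testis sodium pump subunit, had a log2 fold change of -0.39 (adjusted p 0.193), and Slc9b1, another sodium/proton exchanger, of -0.34 (adjusted p 0.231). Kcnu1, the pore of the sperm potassium channel, had -0.13 (adjusted p 0.718), and its partner Lrrc52 had -0.39 (adjusted p 0.288). Of these 2 channel genes, only Lrrc52 had groups that did not overlap. With 1 library left out, log2 fold changes ran from -0.42 to -0.37 for Adcy10 and from -0.51 to -0.27 for Atp1a4. They ran from -0.43 to -0.26 for Slc9b1, -0.53 to -0.24 for Lrrc52 and -0.21 to -0.047 for Kcnu1. Abhd2 (0.14), Prkaca (0.14) and Atp2b4 (0.04), the genes of a progesterone-responsive hydrolase, of the protein kinase A catalytic subunit and of a plasma membrane calcium pump, had positive values, with adjusted p from 0.703 to 0.944. The proton channel gene Hvcn1 had 12 and 34 counts in the controls, and 27 and 24 in the vKO-labelled libraries. Its exons overlap those of Tctn1 on the opposite strand, with 1928 and 1976 counts in the controls, and 2248 and 2203 in the vKO-labelled libraries.

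Markers of the cells that carry CatSper were read beside these values. Over all genes tested, 49.7% had a log2 fold change below 0 and 6.47% were lower at an unadjusted p under 0.05. Of 12 elongating spermatid genes 10 had a log2 fold change below 0 (median -0.27, none called, 6 lower at an unadjusted p under 0.05). Their summed level was 13205 and 10985 CPM in the controls, and 10341 and 10637 in the vKO-labelled libraries, so that control replicate 1 was highest here as for the members. Their median was -0.16 without control replicate 1, -0.35 without control replicate 2 and -0.33 with an offset for GC content. Of 8 round spermatid genes 3 were below 0 (median 0.04, but -0.047 with an offset for GC content and -0.059 to 0.12 with 1 library left out), with sums of 1723 and 1813 CPM in the controls, and 1658 and 1855 in the vKO-labelled libraries. Of 10 spermatocyte genes 8 were below 0 (median -0.12, but -0.24 without control replicate 1 and -0.049 with the GC offset), with sums of 3478 and 3066 against 3356 and 3120 CPM. Sertoli cell genes lay the other way, with 8 of 8 above 0 (median 0.46) and sums of 980 and 1021 against 1413 and 1238 CPM. Wt1, with a log2 fold change of 0.71 (adjusted p 0.0418), was the only gene called in the 10 marker lists, where 0.393% of all genes tested were called. All 8 spermatogonia genes and 6 of 7 Leydig cell genes were above 0 (medians 0.31 and 0.36). At an unadjusted p under 0.05 were 3 spermatocyte genes, all lower, and 6 Sertoli cell, 3 Leydig cell and 2 spermatogonia genes, all higher. Peritubular myoid (-0.01), macrophage (0.08), endothelial (0.24) and epididymis (0.12, 2 of 4 genes tested) lists held few genes. With 1 library left out the myoid median ran from -0.32 to 0.46 and the macrophage median from -0.11 to 0.50, and with no filter the epididymis median was 0.72. No marker in these lists that was among the genes read was at 0 in every library. The part of cell composition in the CatSper values was not tested.

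**Figure D4:**
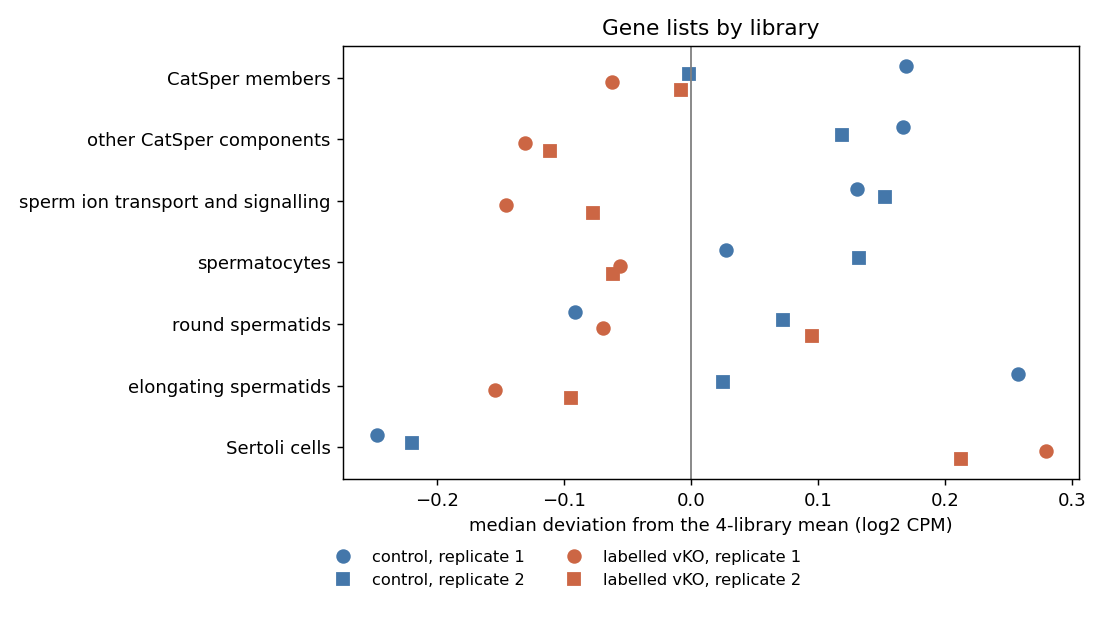
Median over each list of the deviation of a gene's log2 CPM from its mean over the 4 libraries, with 1 point per library. For the CatSper members the points run from -0.0626 to 0.169 with control replicate 1 highest, as for elongating spermatid genes. In each of these lists both labelled libraries lie below both controls, narrowly for the members (-0.0080 in vKO replicate 2 against -0.0015 in control replicate 2). Sertoli cell genes have both labelled libraries above both controls.

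Base composition also differed between libraries. The Spearman correlation across genes of a library's deviation with the GC content of the transcript was 0.0239 and -0.4 for the controls, and 0.254 and 0.189 in the vKO-labelled libraries, a description in which genes are not independent. Catsperb had the lowest GC content of the members (37.2%), while the others lay between 47.1% and 52.1%, near the median of 48.9% for all genes tested. Slco6c1 (37.1%) and Slc9c1 (39.3%) were low as well. With an offset for GC content the log2 fold change of Catsperb was -0.28 (unadjusted p 0.0502, adjusted p 0.364). That of Catsperd was -0.27 (unadjusted p 0.034, adjusted p 0.314). That of Slco6c1 was -0.46 (adjusted p 0.101) and that of Slc9c1 -0.44 (adjusted p 0.116). Some other genes became lower still. With the same offset Catsperz went from -0.207 to -0.286 (unadjusted p 0.0478, adjusted p 0.356). Lrrc52 went from -0.389 to -0.403, and Atp1a4 from -0.394 to -0.396.

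Since YTHDF2 reads m6A, transcripts of the members were searched for GGACT, a core form of the sequence that is methylated, on the sense strand of the longest M21 transcript. All 8 held it at least once, as did 85.9% of tested genes. Density was 2.74 per kilobase in Catsper1 (6 matches), the highest, and 0.391 in Catsperd (1 match), the lowest. Catsperb had 5 matches, or 1.35 per kilobase. The median density of the members was 1.13 per kilobase, beside 1.02 for all genes tested, and 4 members lay above the latter. A match is a description of sequence and does not show methylation.

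The genes whose profile over the 4 libraries lay nearest to the mean profile of the members were Fank1, Abcf3 and Nr6a1, at Euclidean distances of 0.00437, 0.0155 and 0.0164 on the log2 scale. Members lay at 0.116 (Catsper2) to 0.335 (Catsperb) from that mean, and 826 of 17819 other genes lay nearer than any member.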

How the data were processed

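Testis RNA of 4 libraries was analysed from 1 deposited table of 25265 genes, none with fewer than 10 counts in all. It holds raw read counts per gene, which the authors deposited. It also holds the authors' mean normalized count (a signal), their log2 fold change with its standard error, a test score, and p-values, with the column names of DESeq2, per the file headers. HISAT2 2.1.0 and HTSeq 0.6.1p1 are named, without roles, in the submitters' processing notes. The build, strand setting and treatment of multiply matching reads are not given in the sources used here. Identifiers of 25241 genes were found in GENCODE M21 (GRCm38), the source of coordinates, transcripts and overlaps.

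Counts were tested with edgeR 4.0.16 (R 4.3.3, limma 3.58.1): filterByExpr, TMM scaling, robust quasi-likelihood fitting with the group as its only term over all 4 libraries, two-sided F tests, and Benjamini-Hochberg adjustment over 21132 genes. Calls required an adjusted p under 0.05. Standard errors are the log2 fold change divided by the square root of F, and 95% intervals use its degrees of freedom without adjustment for many genes. CPM are TMM-scaled, and the prior count for fitted fold changes was 0.125. The fit was tested on simulated data. Replicates differed by more than sampling noise (chi-square per degree of freedom 17.8 and 7.31), so none were merged. Copies were sought with blastn 2.17.0 (at least 80% identity over 20% of the transcript) and the coding pair aligned with mafft 7.526. DESeq2 1.42.0 was an alternative, beside other scalings, filters, a GC offset (loess, span 0.3), a replicate block and leaving out each library. Profile likeness used log2(CPM + 0.01) for genes with a mean of at least 1 CPM.

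Named genes were the 8 members, 8 other CatSper components, 11 sperm ion transport and signalling genes, Ythdf2, the 3 nearest profiles and any called gene of the 10 marker lists. Gm18795, Pdia3, Kcnk4, Zfpl1 and Tctn1 were named after copies and overlaps had been seen. Members and lists were chosen with earlier results of these data known. The spread between the 2 libraries of a group (common biological coefficient of variation 13.5%) sets the precision for the members more than counting error does, and reads carry no molecular identifiers.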

Additional observations from a re-analysis of the deposited data

How the results depend on the processing

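No CatSper member was called under DESeq2 size factors, library totals alone, no filter, a minimum of 10 counts in each sample, fitting that was not robust, DESeq2, the GC offset, or the fits leaving out 1 library. Over the whole table the 83 calls became 218 with library totals alone, 217 with DESeq2, 139 with the GC offset (79 higher, 60 lower) and 35 to 1512 with 1 library left out. Both groups use the same replicate numbers, whose meaning the labels leave unstated. The deviations of libraries with the same number had a correlation of 0.0932 across 17827 genes, and with 2 pairs no pairing was assumed. With the replicate block 1017 genes were called, and with the GC offset and replicate block 1323. The block called 1 member, Catsperb (log2 fold change -0.38, adjusted p 0.0374), and with the GC offset no member. Among other CatSper components 1 gene, Slco6c1, was called by DESeq2, by the block and by both block and GC offset, and 0 to 2 with 1 library left out. Among sperm ion transport and signalling genes 1 was called by DESeq2, 2 by the block, 3 by block and GC offset, and 0 to 4 with 1 library left out. The summed Catsperg pair ran from -0.16 to 0.20 with 1 library left out. Leaving out 1 library turned the sign in 10 named genes, whose log2 fold changes then ran from -0.0083 to 0.12 for Catsper1, -0.25 to 0.0057 for Catsper3, -0.13 to 0.31 for Catsperg1, -0.21 to 0.044 for Catsperg2 and -0.49 to 0.0014 for Catspere1. They ran from -0.23 to 0.077 for Catspere2 (0.049 without vKO replicate 2), -0.26 to 0.88 for Hvcn1, -0.16 to 0.27 for Atp2b4 (-0.056 without vKO replicate 1), -0.0056 to 0.30 for Abhd2 and -0.032 to 0.32 for Prkaca. Catspere2 was also 0.0075 with the GC offset and 0.013 with offset and block. A lone remaining library is assumed to vary like the others. For these changes the cause was not tested. The longest protein-coding transcript as length, chosen after seeing the data, raised Catsperg1 from 67.3 to 80.7 CPM per kilobase.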
